A study of Mus musculus with 3 samples.

Results

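Interneurons born in the medial ganglionic eminence (MGE) of the embryonic ventral forebrain travel long distances to the cortex and striatum, and secreted chemokines and growth factors guide and sustain that movement. The genes described here are 10 ligands and receptors of 3 such systems, the chemokines with their receptors (Cxcl12, Cxcl14, Cxcr4, Ackr3), the neuregulins with ErbB4 (Nrg1, Nrg2, Nrg3, Erbb4), and hepatocyte growth factor with its receptor (Hgf, Met). They were chosen by name among the 22180 genes that have a probe set carrying their symbol alone, and each of the 10 was measured by 1 such probe set, so that splice forms of a gene are not told apart.

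The data came from 3 cultures of wild-type CD-1 mouse embryos, 1 array each, which the labels call biological replicates and which form 1 group. MGE tissue was taken at embryonic day 13, dissociated and grown with FGF2 at 40 ng/ml. To remove dividing cells, AraC, a nucleoside that kills cells copying their DNA, was present at 1 µM for 24 h from day 5, and RNA was taken after 2 further days. All 3 cultures carry these exposures, there is no untreated or unpurified group, and 3 arrays set the precision.

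As background, CXCL12 is a chemokine secreted in the embryo by the meninges and by cells along the migratory routes. CXCR4 is its signalling receptor, and ACKR3 (also known as CXCR7) is an atypical receptor that binds the same ligand, signals through arrestins and removes the ligand from the surroundings. Neuregulins are ligands with an EGF-like domain that bind ErbB receptor kinases. ErbB4 is the one carried by migrating interneurons, and it later sits at their synapses. HGF is a secreted factor that stimulates cell movement through the receptor kinase MET.

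All 4 receptors and 4 of the 6 ligands gave signal above background. Cxcr4, Ackr3, Erbb4 and Met passed, as did Cxcl14, Nrg1, Nrg2 and Nrg3, while Cxcl12 and Hgf did not. The 8 of 10 stand beside 63.4% of all 20751 genes tested that passed by the same rule. Values are log2 signals, given for cultures 1, 2 and 3 in that order and then as mean ± SD (n = 3). Background was the 95th percentile, 6.26, of probe sets for receptors of smell, pheromones and bitter taste, genes that serve sensory cells outside this tissue. A gene was above background where limma's moderated 1-sided test put its mean over that line with an adjusted p (Benjamini-Hochberg over all probe sets tested) under 0.05. With a margin of 1 log2 unit over the line 6 of 10 passed, against 47.6% of all genes, Ackr3 (adjusted p = 0.171) and Met (1.0) no longer being among them. The median distance of the members from the line was 1.53 log2 units, and that of all genes tested was 1.08. Levels of different genes are not ranked, because each probe set has its own binding strength.

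**Figure D1:**
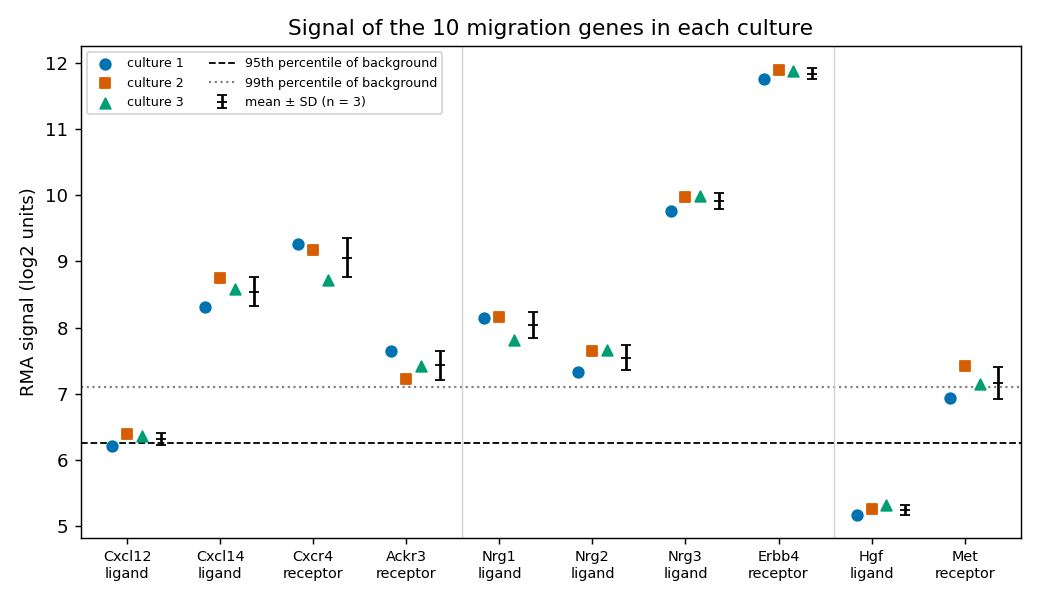
RMA signal (log2 units, vertical axis) of the 10 genes in cultures 1, 2 and 3 (coloured points), with the mean and SD over the 3 cultures at the right of each gene. The dashed and dotted lines are the 95th (6.26) and 99th (7.10) percentiles of the background probe sets. Hgf lies below both lines in all 3 cultures, Cxcl12 lies at the dashed line, and Met lies around the dotted line.

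The chemokine system was represented by both receptors of CXCL12 and by Cxcl14, with Cxcl12 itself at the background line. Sequences upstream of the ligand and of its receptors are shown to set the gene that did not pass beside the ones that did. Each is the 250 bases before the annotated start, 5′ to 3′, from RefSeq on GRCm38.p6, in lower case with every CpG dinucleotide in capitals.
Cxcl12, chr6:117168285-117168534, plus strand: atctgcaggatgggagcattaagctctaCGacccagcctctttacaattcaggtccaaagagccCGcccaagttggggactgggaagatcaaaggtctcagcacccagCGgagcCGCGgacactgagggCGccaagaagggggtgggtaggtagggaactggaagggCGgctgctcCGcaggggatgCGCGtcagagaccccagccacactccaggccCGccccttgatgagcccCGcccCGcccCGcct
Cxcr4, chr1:128592300-128592549, minus strand: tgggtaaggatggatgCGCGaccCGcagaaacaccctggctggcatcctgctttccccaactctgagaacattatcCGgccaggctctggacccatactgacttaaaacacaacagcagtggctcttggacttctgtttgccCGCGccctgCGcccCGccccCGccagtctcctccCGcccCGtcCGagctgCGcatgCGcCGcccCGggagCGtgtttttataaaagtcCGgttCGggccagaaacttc
Ackr3, chr1:90203730-90203979, plus strand: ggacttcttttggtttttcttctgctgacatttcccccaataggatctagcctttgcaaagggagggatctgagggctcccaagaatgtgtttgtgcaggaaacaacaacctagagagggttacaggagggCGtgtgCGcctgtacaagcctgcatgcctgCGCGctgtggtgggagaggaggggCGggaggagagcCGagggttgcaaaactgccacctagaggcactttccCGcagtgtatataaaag

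Cxcl12 measured 6.21, 6.39 and 6.36 (6.32 ± 0.09). Cultures 2 and 3 were over the line and culture 1 was under it, and the mean was not above background (limma, adjusted p = 0.296). The 95% interval of the mean, from 6.15 to 6.49, includes the line, so the call is set by where the line is drawn. With the 90th percentile as the line Cxcl12 passed (adjusted p = 0.000873), as did 72.5% of all genes, and without culture 2 its mean lay 0.06 under the line of the other cultures (limma, adjusted p = 1.0).

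Markers of meningeal, pericyte and endothelial cells, among the known sources of CXCL12, were read beside it. The dissection removed the meninges, per the labels. In the list of markers of meninges, fibroblasts and pericytes, 6 of 9 genes were above background and 1 was with a margin of 1, beside 63.4% and 47.6% of all genes. That one was Acta2, smooth muscle actin, at 9.93, 9.87 and 8.38, which was named after its value was seen. Lum (4.64 ± 0.48) and Dcn (6.02 ± 0.22), proteoglycans of fibroblasts, were not above background, nor was Col1a2 (6.28 ± 0.20). Pdgfrb (6.88 ± 0.08), Col1a1 (7.22 ± 0.22) and Foxc1 (6.73 ± 0.16) were above background, though not with the margin. The summed signal of the list was 10.74, 10.73 and 10.10 on the log2 scale in cultures 1, 2 and 3, a sum in which Acta2 is the largest term, and the median deviation of its genes from their own means was 0.03, 0.04 and 0.04. Without culture 3 it had 4 of 9, Rgs5 and Col3a1 no longer passing, and without culture 2 it had 5, Rgs5 not passing. In the endothelial list 5 of 7 genes passed, and the margin of 1 left none, with summed signals of 9.48, 9.55 and 9.38. Without culture 1 that list had 3 of 7, Pecam1 and Cldn5 no longer passing. RNA was pooled over all cells of a culture. The cells behind the signal of Cxcl12 or any other gene therefore cannot be told apart, nor can fewer cells of a type from less RNA per cell.

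Cxcr4, the signalling receptor, measured 9.27, 9.18 and 8.72 (9.05 ± 0.29), all well over the line (limma, adjusted p = 2.63e-05). Culture 3 was the low one, 0.34 under the mean, and Cxcr4 had the largest SD of the 10 genes. Of all probe sets tested, 90% had an SD no higher than this. Ackr3, the scavenging receptor, measured 7.65, 7.22 and 7.42 (7.43 ± 0.22, adjusted p = 0.000251). Here culture 1 was high and culture 2 low, so the order of the cultures was not the one seen for Cxcr4. Ackr3 also passed at the 99th percentile line of 7.10 (limma, adjusted p = 0.0288), as 49.9% of all genes did, but not at the line of 7.19 taken from keratin-associated and other non-neural gene families (adjusted p = 0.0741, against 48.9% of all genes passing).

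Cxcl14, a chemokine that some interneuron classes express in the mature brain, measured 8.30, 8.74 and 8.58 (8.54 ± 0.22). It was above background in every alternative tried (limma, adjusted p = 2.42e-05 with all 3 cultures). Culture 1 was the lowest for this gene, and the 3 values spanned 0.44 log2 units.

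The neuregulin system was above background throughout, ligands and receptor alike. Erbb4, the receptor, measured 11.75, 11.89 and 11.87 (11.84 ± 0.08, adjusted p = 1.37e-06 by limma). The cultures lay within 0.15 log2 units of each other, the narrowest range of the 10 genes. Nrg3, a neuregulin largely confined to the nervous system, measured 9.77, 9.98 and 9.99 (9.91 ± 0.12, adjusted p = 2.02e-06 by limma). For both genes culture 1 was the lowest and the other 2 were nearly equal.

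Nrg1, the neuregulin with the widest range of membrane-bound and secreted forms, measured 8.15, 8.16 and 7.81 (8.04 ± 0.20, adjusted p = 4.38e-05 by limma). Culture 3 was the low one, as for Cxcr4. Nrg2, a close relative of Nrg1, measured 7.33, 7.65 and 7.66 (7.55 ± 0.19, adjusted p = 0.000122 by limma), with culture 1 low. In the RefSeq annotation Nrg1 overlaps 9 other genes, the protein-coding Gm3985 among them, Nrg2 overlaps the protein-coding Psd2, and Nrg3 overlaps the protein-coding Gm31606 and Nrg3os, an antisense transcript. How the probes lie against these overlaps is not given in the sources used here. Nrg1, Nrg2, Nrg3 and Erbb4 all passed with the margin of 1, Nrg2 by the least (limma, adjusted p = 0.0354).

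In the HGF system the receptor was above background by the main rule and the ligand was not. Upstream sequences of both genes are printed in the same way, the first of 2 annotated starts for Hgf, because they are the pair whose calls differ and whose CpG counts lie furthest apart within a ligand and receptor pair.
Hgf, chr5:16553245-16553494, plus strand: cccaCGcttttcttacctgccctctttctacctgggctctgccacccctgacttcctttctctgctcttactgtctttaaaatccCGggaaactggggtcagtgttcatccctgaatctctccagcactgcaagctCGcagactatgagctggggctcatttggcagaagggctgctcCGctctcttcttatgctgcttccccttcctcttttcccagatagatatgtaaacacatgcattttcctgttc
Met, chr6:17463707-17463956, plus strand: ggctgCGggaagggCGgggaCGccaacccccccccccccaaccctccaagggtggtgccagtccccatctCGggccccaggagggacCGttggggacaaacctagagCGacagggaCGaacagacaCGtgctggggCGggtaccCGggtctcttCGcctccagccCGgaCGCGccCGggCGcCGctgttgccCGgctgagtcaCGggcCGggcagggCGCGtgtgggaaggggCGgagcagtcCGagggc

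Hgf measured 5.16, 5.26 and 5.32 (5.25 ± 0.08). Every culture lay under the line, the mean minus the line was -1.01 log2 units, and the 95% interval from 5.09 to 5.40 did not reach it. Hgf was called above background in none of the 13 alternatives. Met, the receptor, measured 6.93, 7.42 and 7.15 (7.17 ± 0.24). All 3 cultures were over the 95th percentile line (limma, adjusted p = 0.000933), and 2 of 3 were over the 99th. At that stricter line Met did not pass (limma, adjusted p = 0.556), and against the other gene families its mean lay 0.02 below the line.

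An upstream sequence was listed by RefSeq for 8 of the 10 genes, with 2 starts for Hgf. Nrg1 and Nrg2 had no entry. Among all genes tested, upstream sequences of genes above background held a median of 15 CpG (quartiles 8 and 23), and those of genes not above it held 3 (quartiles 2 and 7). Hgf held 4 and 5 at its starts and Met held 24. Cxcl12, which did not pass, held 14, more than Erbb4 (12) and Ackr3 (7), which did. Cxcl14, Cxcr4 and Nrg3 held 16, 19 and 27. Among these genes the counts of Cxcl12 and Ackr3 did not follow the call, since that of Cxcl12 was the higher. Genes are not independent replicates, so these values are a description and were not tested.

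**Figure D2:**
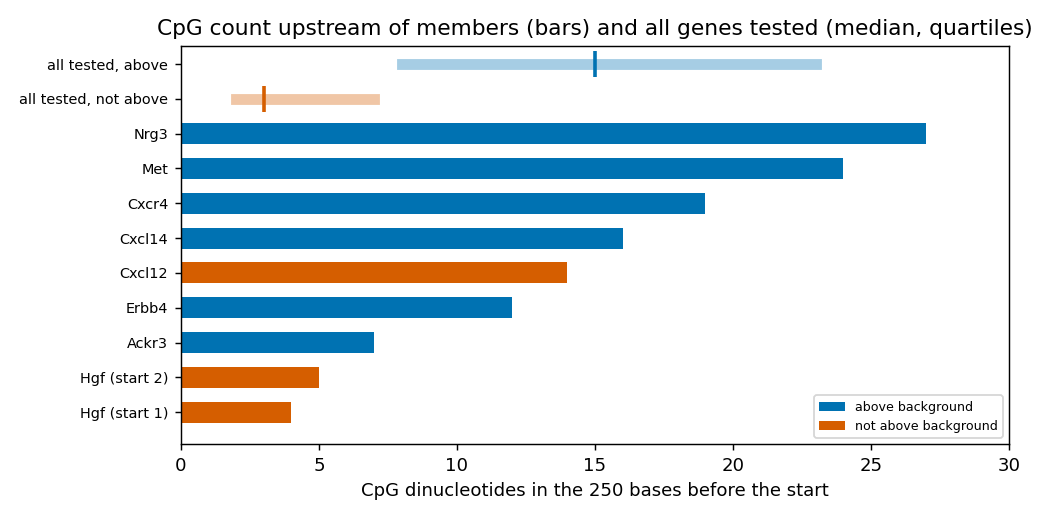
Number of CpG dinucleotides (horizontal axis) in the 250 bases before the annotated start, as bars for the member genes with a RefSeq upstream sequence, coloured by whether the gene was above background. The upper 2 rows give the median (tick) and quartiles (band) over all genes tested, 15 for genes above background and 3 for the others. Hgf lies with the lower group at 4 and 5, and Cxcl12 lies at 14.

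Of 3 motifs searched on both strands, TATAAA occurred upstream of Cxcr4 (1 stretch matched on both strands, the nearer of the overlapping matches beginning 30 bases before the start) and of Ackr3 (1 match, beginning 8 bases before the start). It was found in 12.4% of all upstream sequences of this length and in 6.57% of those of genes above background. GGGCGG, whose letters include a CpG, occurred 5 times for Cxcl12, 3 times each for Cxcr4 and Met and once for Ackr3. It was present in 32.7% of all sequences, in 57.2% of those of genes above background and in 21.3% of those of tested genes not above it. TAATTA, a core bound by homeodomain proteins, occurred in no member sequence and in 4.84% of all. A match is a string of letters in this window and not a measured binding site.

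The 10 genes varied between cultures by less than 1 log2 unit, and with all 3 cultures their median SD was higher than that of all probe sets. None of the 10 spanned more than 1 log2 unit between its lowest and highest culture, and 1.28% of all probe sets tested did. The members' SDs ran from 0.08 (Hgf and Erbb4) to 0.29 (Cxcr4), with a median of 0.19, while the median SD of all probe sets tested was 0.13, and 6 of 10 lay over that value. The median SD of the members was 0.08 without culture 1, 0.16 without culture 2 and 0.14 without culture 3. For all probe sets tested the same values were 0.10, 0.08 and 0.13, so that without culture 1 the median of the members was the lower one.

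Culture 1 was the low one for most of the genes. It was the lowest of the 3 for 7 of 10 (Cxcl12, Cxcl14, Nrg2, Nrg3, Erbb4, Hgf and Met), of which Cxcl12 and Hgf were not above background. It was the lowest for 38.7% of all probe sets tested and for 43.4% of those above background. Culture 2 was the lowest for 1 of 10 (Ackr3) beside 32.9% of all, and culture 3 for 2 (Cxcr4 and Nrg1) beside 28.4%. Culture 1 was the highest for Cxcr4 and Ackr3, by 0.21 and 0.22 log2 units over their means. The same 7 genes were lowest in culture 1 after quantile normalization and after median centring, when the share of all probe sets was 40.2% and 43.5%. With 1 array per culture a difference between single cultures has no test.

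**Figure D3:**
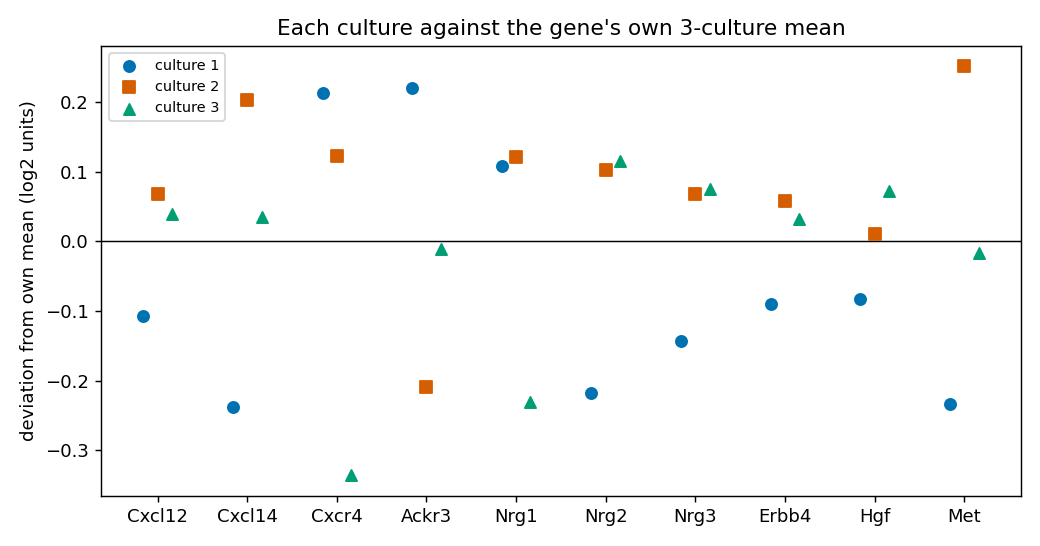
Deviation of each culture from the gene's own mean over the 3 cultures (log2 units, vertical axis; zero is the gene's mean) for the 10 genes, with cultures as coloured symbols. Culture 1 lies lowest for 7 genes and highest for Cxcr4 and Ackr3, and culture 3 lies lowest for Cxcr4 and Nrg1.

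Markers of the cells in the cultures differed between the same arrays. In the list of GABAergic interneuron genes 7 of 7 were above background, also with the margin of 1, beside 63.4% and 47.6% of all genes. The median deviation of the genes of this list from their own means was -0.30, 0.16 and 0.14 log2 units in cultures 1, 2 and 3. Gad1, which makes GABA, measured 9.64, 10.67 and 10.37. The general neuronal list, with 8 of 8 above background, also with the margin, deviated by -0.17, 0.10 and 0.04. In both lists culture 1 was thus the low one, as for Cxcl12, Cxcl14, Nrg2, Nrg3, Erbb4, Hgf and Met. The order was not particular to these lists. Culture 1 was also lowest in the cortical glutamatergic list (-0.21, 0.35 and -0.07), with no gene above background, and the Cajal-Retzius list (-0.10, 0.05 and 0.09). It was lowest too among the CXCL12 partners (-0.07, 0.06 and 0.02) and MGE regulators (-0.11, 0.14 and 0.06) described below.

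The astrocyte list, with 6 of 7 genes above background and 5 with the margin of 1, ran the other way. Its median deviations were 0.43, -0.46 and 0.04. Its gene Gfap, an astrocytic filament protein, measured 8.51, 6.64 and 8.08, and Aqp4, a water channel, measured 8.74, 7.53 and 8.34. Gfap did not pass without culture 1 or culture 3 (5 of 7 each; limma, adjusted p = 0.0888 and 0.1), and S100b, a calcium-binding protein, passed only without culture 2 (7 of 7, adjusted p = 0.0219). The oligodendrocyte lineage list (6 of 6) deviated by 0.12, -0.06 and -0.06, and the list of progenitors and dividing cells (7 of 7) by 0.20, -0.07 and -0.03. Every measured gene of both lists was also above background with the margin of 1, as in the interneuron list. Ackr3, at 0.22, -0.21 and -0.01, had its highest value in culture 1 and its lowest in culture 2. The medians of the astrocyte, oligodendrocyte lineage and progenitor lists had the same highest and lowest culture. So had those of the microglial list (0.05, -0.11 and 0.03) and of the neuregulin processing list described below (0.03, -0.07 and -0.04). Summed signals in cultures 1, 2 and 3 were 13.83, 14.31 and 14.23 for the interneuron list and 13.14, 12.32 and 12.70 for the astrocyte list, on the log2 scale. Whether the cell make-up of the cultures has a part in the values of the 10 genes was not tested.

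Lists of 3 other cell types that could be present were read too, again beside 63.4% of all genes, or 47.6% with the margin. The microglial list had 5 of 8 genes above background and none with the margin of 1. Without culture 3 it had 1 of 8, Aif1, P2ry12, C1qb and Fcer1g no longer passing. The cortical glutamatergic list had 0 of 6 by limma, though without culture 1 Slc17a7, a vesicular glutamate transporter, passed (adjusted p = 0.041), and 4 of 6 passed at the 90th percentile line. Slc17a7 was at 7.22 in culture 2, against 6.11 and 6.63 in cultures 1 and 3. The list of Cajal-Retzius cells, cortical neurons that carry CXCR4, had 1 of 5, the calcium buffer Calb2 (8.04 ± 0.32), which interneurons also express.

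**Figure D4:**
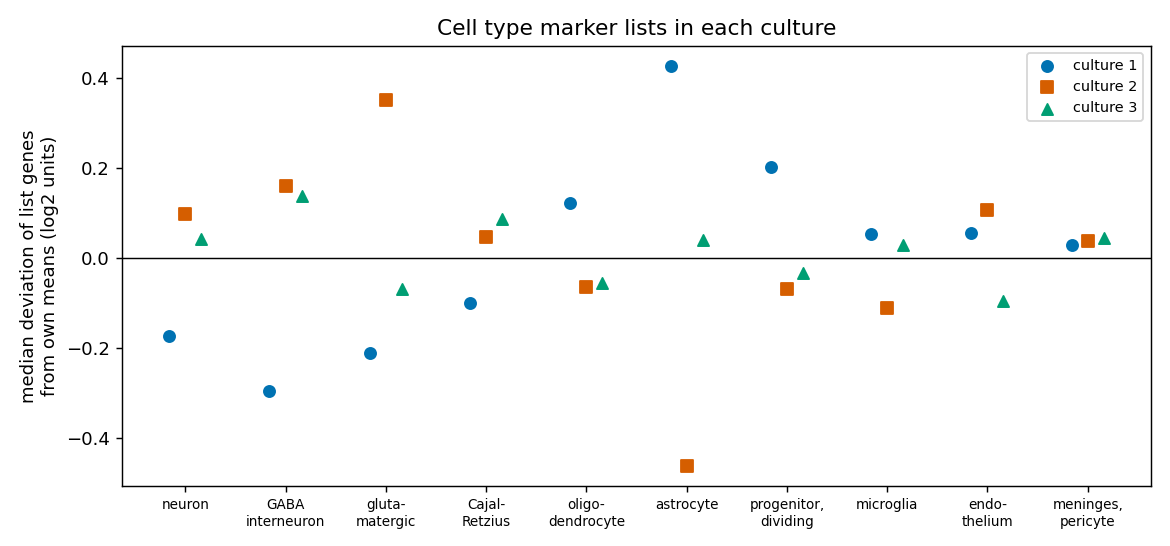
Median deviation of the genes of each cell type marker list from their own 3-culture means (log2 units, vertical axis) in cultures 1, 2 and 3 (coloured symbols). Culture 1 lies low in the neuron and GABA interneuron lists (-0.17 and -0.30) and high in the astrocyte list (0.43), where culture 2 lies at -0.46. Culture 1 is also the lowest in the glutamatergic and Cajal-Retzius lists (-0.21 and -0.10).

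Other genes of the 3 systems were read from 6 lists. Over these lists 52 of 68 measured genes (76.5%) were above background and 42 were with the margin of 1, beside 63.4% and 47.6% of all genes. Some genes named from these lists were chosen after their values were seen, namely Gnai1, Gnai2, Gnai3, Arrb1, Arrb2, Penk, Mmp2, Ackr2, Tgfa, Hbegf, Bace1, Plau, Plaur, Plat, Hpn, Spint2, Gab1, Ret, Ntrk2 and Ntrk3.

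Beside 63.4% and 47.6% of all genes, 13 of 18 partners of the CXCL12 receptors were above background, 12 with the margin of 1. The G protein subunits Gnai1, Gnai2 and Gnai3 and the arrestins Arrb1 and Arrb2, which carry the signals of CXCR4 and ACKR3, were all among them. So was Mif (11.21 ± 0.14), a cytokine that also binds CXCR4. Cxcl11 (5.64 ± 0.20), a further ligand of ACKR3, and Adm (6.33 ± 0.44), the peptide adrenomedullin that ACKR3 takes up, were not above background. Neither were Ackr4 (5.65 ± 0.22), a scavenger of other chemokines, Dpp4 (5.09 ± 0.08), a peptidase that cleaves CXCL12, and Mmp9 (6.34 ± 0.12), a matrix protease. By contrast Mmp2 (8.71 ± 0.37), another matrix protease, was above background, also with the margin, and Ackr2 (6.74 ± 0.14) was without it. Penk, whose opioid peptides ACKR3 also binds, measured 8.09, 9.15 and 8.88, with culture 1 low.

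Among the other ErbB receptors and EGF-family ligands 7 of 10 were above background. With the margin of 1 it was 4, beside 63.4% and 47.6% of all genes. Egfr, the receptor for EGF, measured 10.48, 9.94 and 10.57 (10.33 ± 0.34), with culture 2 low. Erbb2, the partner kinase that binds no ligand itself, measured 7.99, 7.76 and 7.67 (7.81 ± 0.16). Erbb3 (6.47 ± 0.15), a neuregulin receptor with little kinase activity, passed narrowly (limma, adjusted p = 0.0379) and did not without culture 2 (0.144) or culture 3 (0.0881). The same held for the ligand Nrg4 (6.53 ± 0.23; limma, adjusted p = 0.0471 with all cultures, 0.395 and 0.183 without culture 2 and culture 3). Ereg (6.77 ± 0.19), the ligand epiregulin, was lost without culture 2 only (limma, adjusted p = 0.0648), so that 4 of 10 passed without that culture. Of the remaining ligands Tgfa (8.27 ± 0.30) and Hbegf (8.67 ± 0.24) were above background, and Egf (5.49 ± 0.11), Btc (5.53 ± 0.09) and Epgn (5.49 ± 0.07) were not.

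Every measured gene of neuregulin processing was above background, 9 of 9, and 8 were with the margin of 1, beside 63.4% and 47.6% of all genes. Adam10 (10.04 ± 0.10) and Adam17 (8.17 ± 0.16) are proteases that shed the outer parts of membrane proteins, ErbB4 and neuregulins among them. Bace1 (9.67 ± 0.09) is a protease that cleaves Nrg1 and Nrg3. Subunits of gamma-secretase, which cuts the ErbB4 stub within the membrane, made up 4 of the list.

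Among HGF and MET partners 10 of 15 were above background and 6 were with the margin of 1, beside 63.4% and 47.6% of all genes. The adaptors that dock on MET, Gab1 (9.90 ± 0.25) among them, passed, and so did the plasminogen activator Plat (10.39 ± 0.27). Plau (6.83 ± 0.14), a protease that can activate HGF, and its receptor Plaur (6.59 ± 0.05) were above background but not with the margin. The HGF activator Hpn (6.63 ± 0.07) was above background but not with the margin, and the inhibitor Spint2 (8.19 ± 0.13) was also with it. The HGF activators Hgfac (6.12 ± 0.09) and St14 (6.17 ± 0.10), the precursor Plg (6.23 ± 0.13) of plasmin, the inhibitor Spint1 (6.36 ± 0.12) and Mst1r (6.12 ± 0.23), a receptor related to MET, were not above background. Mst1 (6.53 ± 0.09), the ligand of that receptor, passed with all cultures (limma, adjusted p = 0.0092) but not without culture 2 (0.0925).

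Growth factors of 2 further systems that stimulate interneuron movement were read with their receptors. In this list 4 of 7 genes were above background and 3 were with the margin of 1, beside 63.4% and 47.6% of all genes. The 4 were receptors for GDNF and neurotrophins, Gfra1 (8.55 ± 0.14), Ret (7.28 ± 0.13), Ntrk2 (10.89 ± 0.07) and Ntrk3 (9.90 ± 0.14). Ret did not pass with the margin. The measured ligands Gdnf (5.00 ± 0.09), Bdnf (6.02 ± 0.26) and Ntf5 (5.38 ± 0.21) were not above background, and the ligand Ntf3 was not measured. Transcription factors of the MGE lineage, known regulators of the migratory programme, were above background in 9 of 9 cases, also with the margin of 1. Lhx6, which is known to act upstream of the CXCL12 receptors in interneurons, measured 10.10, 10.28 and 10.27 (10.21 ± 0.10), and Nkx2-1, which acts upstream of Lhx6, measured 9.06, 9.34 and 9.07 (9.16 ± 0.16).

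**Figure D5:**
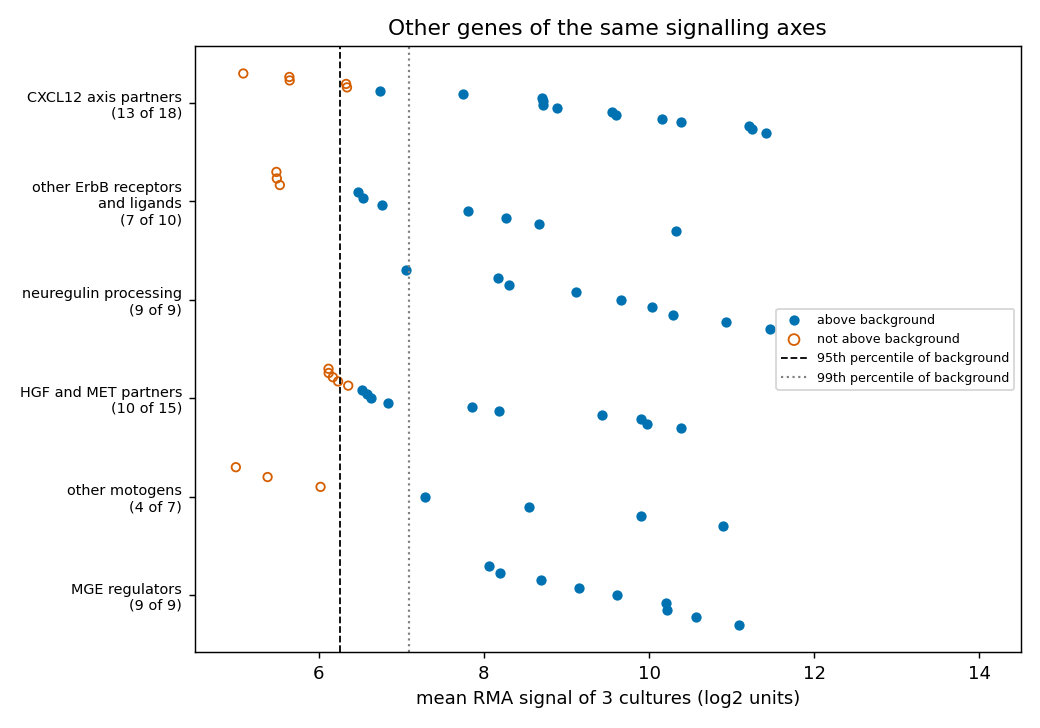
Mean RMA signal over the 3 cultures (log2 units, horizontal axis) of each measured gene in 6 lists related to the members. Filled points passed the test against the 95th percentile line (dashed, 6.26) and open points did not, and the dotted line is the 99th percentile (7.10). The neuregulin processing and MGE regulator lists lie wholly over the dashed line (9 of 9 each).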

How the data were processed

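The values are log2 signals that the authors deposited for every probe set in each of the 3 cultures. RMA from the package oligo produced them, per the submitters' processing notes. RMA as commonly run normalizes arrays to one another, which can hide a shift common to most genes. The deposited columns were not identical in distribution, with medians of 6.57, 6.52 and 6.56. Their versions, settings and genome build were not given in the sources used here. Of 41345 probe sets, 23521 carry 1 gene symbol in the platform's probe table, and only these were used. The 1440 background probe sets set the line, and limma 3.58.1 in R 4.3.3 fitted an intercept on the other 22081 (2.13 prior degrees of freedom). Where a list gene had several probe sets, any of them could make the call and the one with the highest mean is printed.

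The 10 genes, the lists and the tests were chosen with earlier results of these data known. The rule for naming genes gave the 10 and, per list, the first 2, the smaller of the called and uncalled groups (up to 5), and those whose call changed without 1 culture. Others, chosen after their values were seen, are marked as such in the text. In the cell type marker lists some genes that the rule gives are left out. Tubb3, Dcx, Pdgfra, Nes and Vim, above background, and Csf1r, Itgam and Tmem119, not above it, are among these. The list of meninges, fibroblasts and pericytes is named in full, so Col1a1 and Foxc1 appear there though the rule does not give them. Upstream sequences were cut to 250 bases from RefSeq's GRCm38.p6 set. The test's recovery was checked by simulation. With 50 probe sets each raised 0.25, 0.5, 1 and 2 log2 units over the line, 40, 47, 49 and 50 were called in a fit of 22081, and of 7129 below the line 10 (0.14%) were. The 7129 lay at any distance below the line, and SDs were shuffled over probe sets. The check thus does not give the rate of false calls for genes near the line. The 13 alternatives are given in the closing section.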

Additional observations from a re-analysis of the deposited data

How the results depend on the processing

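The 13 alternatives were the 99th and 90th percentiles and a line from keratin-associated, defensin, seminal vesicle and pregnancy-specific genes (7.19), a margin of 1, every culture above the line with no test, an intensity trend, quantile normalization, median centring, removal of dim probe sets, the mean of a gene's probe sets, and each culture left out. The number of the 10 genes above background was between 6 and 9 over these, and was 8 with any 1 culture left out. For 7 genes (Cxcl14, Cxcr4, Nrg1, Nrg2, Nrg3, Erbb4 and Hgf) the direction and the side of the threshold were the same in all 13. The mean of Cxcl12 minus the line was -0.778 log2 units at the 99th percentile, -0.869 with the other families, -0.940 with the margin and -0.0602 without culture 2, and Cxcl12 passed at the 90th percentile, 0.50 over it. Met changed sign with the other families (-0.0241) and the margin (-0.0954). Ackr3 no longer passed with the other families or the margin. Moving the line up by construction lowers every distance. Without culture 2 the line was set anew from the other cultures and rose from 6.26 to 6.35. The mean of Cxcl12 went from 6.32 to 6.29 in that setting. The genes called among all tested ran from 9880 to 15050, and from 12635 to 12965 with 1 culture left out. The median SD of the members was between 0.0817 and 0.159 with 1 culture left out, against 0.19 with all 3. That of all probe sets tested was between 0.0847 and 0.126, against 0.128, and without culture 1 it was higher than that of the members. No paired analysis was possible because the 3 cultures form 1 group. The ErbB list went from 7 to 4 of 10 and the HGF and MET partners from 10 to 6 of 15 at the 99th percentile, with the other families and with the margin. The share of all genes went from 63.4% to 49.9%, 48.9% and 47.6% in these settings, in that order. Without culture 1 the endothelial list fell from 5 to 3 of 7. Probe sets near background limit what Cxcl12, Met, Erbb3 and Nrg4 can show.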

Other observations

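Ackr1, the atypical chemokine receptor of red blood cells and vessel walls, measured 9.35, 9.62 and 9.70 (9.56 ± 0.18) and was above background (limma, adjusted p = 4.6e-06), while none of the 7 endothelial markers was with a margin of 1. In the RefSeq annotation Ackr1 overlaps Cadm3, an adhesion protein of neurons, whose own probe set measured 9.88, 10.07 and 10.20 (10.05 ± 0.16). Culture 1 was the lowest and culture 3 the highest for both. Whether the Ackr1 probe set reads transcripts of the overlapping gene was not tested, and both genes were picked after their values were seen.

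Acta2, smooth muscle actin, was at 8.38 in culture 3 against 9.93 and 9.87 in cultures 1 and 2. The median deviation of the meningeal and pericyte list, of which Acta2 is a member, was 0.03, 0.04 and 0.04 in cultures 1, 2 and 3. Cxcr4 (8.72) and Nrg1 (7.81) were lowest in culture 3 too, whereas Cxcl12 (6.36) was not.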
